A study of Mus musculus with 42 samples.

Results

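Liver RNA from mice fed a high-fat diet for 14 days was compared with liver RNA from mice fed the same diet for 7 days, across 17989 genes named by a single symbol. The 16 arrays were those whose titles give 14 days (8 arrays) or 7 days (8 arrays) of high-fat diet, out of 42 arrays in the series. All mice were single-housed, random-fed, wild-type male C3HeB/FeJ animals, an inbred strain. Those sampled after 7 days were 15 weeks old and those sampled after 14 days were 16 weeks old, so time on the diet and age rise together and cannot be told apart. The remaining arrays were 8 from mice aged 17 weeks after 21 days of high-fat diet and 18 from low-fat diet controls aged 15 to 17 weeks. The titles of all 18 control arrays and all 8 arrays of 21 days carry the word reanalysis, whose meaning is not given, whereas no title of the 7-day or 14-day arrays does. The 7-day and 14-day groups therefore do not differ in that word, but each differs in it from the controls. Both hold the replicate numbers 1 to 8. The labels do not say which animal gave which array, so each p-value reflects only the spread among arrays. In the main fit of 14 against 7 days, that spread was estimated for each gene from all 42 arrays.

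A high-fat diet delivers fatty acids to the liver that are burned in mitochondria and peroxisomes, built into triglyceride in lipid droplets, or exported in lipoproteins. Fatty acids also activate PPAR-alpha, a nuclear receptor that switches on genes for fatty acid oxidation, omega-hydroxylation and droplet coats. The liver also makes acute phase proteins such as serum amyloid A and lipocalin 2, whose transcription responds to inflammatory cytokines through factors that include C/EBP-beta, STAT3 and NF-kappaB.

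Among all genes the acute phase gene Lcn2 had the smallest p-value and the acute phase gene Saa2 the widest difference, and their proximal promoters are shown for that reason. Each sequence is the 250 bases upstream of the RefSeq gene start, build GRCm38.p6, 5′ to 3′ on the gene's strand. Capitals mark the one match to TTGCNNAA, the outer letters of the C/EBP core, searched on both strands. Lcn2 lies on the minus strand at chr2:32387740-32387989, Saa2 on the plus strand at chr7:46751583-46751832, and its neighbour Saa1 on the minus strand at chr7:46742981-46743230.
Lcn2: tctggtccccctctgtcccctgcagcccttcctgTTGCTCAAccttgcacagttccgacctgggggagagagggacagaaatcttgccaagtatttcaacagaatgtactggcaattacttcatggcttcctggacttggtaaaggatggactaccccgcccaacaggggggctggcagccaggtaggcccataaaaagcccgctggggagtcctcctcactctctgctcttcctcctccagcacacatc
Saa2: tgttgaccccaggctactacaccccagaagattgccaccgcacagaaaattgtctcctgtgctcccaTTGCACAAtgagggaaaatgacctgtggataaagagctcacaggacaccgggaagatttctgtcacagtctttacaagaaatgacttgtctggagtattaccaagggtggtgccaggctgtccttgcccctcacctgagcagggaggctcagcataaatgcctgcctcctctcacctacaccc
Saa1: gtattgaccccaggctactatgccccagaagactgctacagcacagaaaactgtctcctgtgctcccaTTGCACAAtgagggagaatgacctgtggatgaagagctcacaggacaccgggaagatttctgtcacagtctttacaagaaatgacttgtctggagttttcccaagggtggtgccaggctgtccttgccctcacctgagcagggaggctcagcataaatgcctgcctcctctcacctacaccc
The match begins 216 bases before the gene start in Lcn2, 183 in Saa2 and 182 in Saa1. Of all 32851 upstream windows of the same length, 9.56% hold this spelling, and a match is a description of letters, not of binding. The Saa1 and Saa2 windows are 94.8% identical.

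Between 14 and 7 days no gene passed limma's moderated test at an adjusted p of 0.05 (0 of 17989 genes, 0%), and the smallest adjusted p was 0.121, for Lcn2. At an unadjusted p under 0.05 there were 451 genes (2.51% of those tested), fewer than the 899 expected by chance. Of the 451, 230 had the lower mean at 14 days (1.28%) and 221 the higher (1.23%). After each array was centred on its median, that split was 327 lower and 125 higher. Lcn2 alone was called when the 7-day replicate 3 (limma adjusted p = 0.0185) or the 14-day replicate 5 (limma adjusted p = 0.00862) was left out, and 3 genes, Lcn2, Lrrc28 and Sprr1a, were called with limma's array weights. Mean levels of 50.1% of genes were lower at 14 days, and the median log2 difference over all genes was -0.00031. No gene's means differed 2-fold. The 7 genes whose means differed at least 1.5-fold all had the lower mean at 14 days: Saa2, Lcn2, Cd36, Cyp4a14, Cyp4a31, Mfsd2a and Tcim, the last of which (-0.70) was named only after its value was seen. The 95% confidence interval of the difference, unadjusted for the number of genes, lay within 1.5-fold in either direction for 17419 genes (96.8%) and within 2-fold for 17938 genes (99.7%). The array values of the 7-day and 14-day groups did not overlap for 7 genes (0.0389%).

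Array-wide measures of the groups overlapped, though array medians were slightly higher at 14 days. Array medians lay between 3.42 and 3.48 at 7 days (mean 3.455, SD 0.020) and between 3.45 and 3.51 at 14 days (mean 3.478, SD 0.019). The median SD of a gene among the 8 arrays was 0.183 at 7 days and 0.182 at 14 days. All 10 hepatocyte markers measured were above background, here the 95th percentile of the olfactory receptor genes (log2 2.86), and their array means lay between 11.34 and 11.64 at 7 days and between 11.18 and 11.64 at 14 days. Markers of pancreatic acinar cells varied widely between arrays of both groups, with array means over 21 genes between 3.37 and 8.43 at 7 days and between 3.32 and 8.27 at 14 days. Malat1, a nuclear long non-coding RNA, lay between 6.60 and 9.43 at 7 days and between 5.76 and 9.21 at 14 days. With the acinar mean or Malat1 as a covariate the count of called genes was 0 in each case. In bulk liver, fewer cells of a type and less RNA per cell cannot be told apart.

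Lcn2 encodes lipocalin 2, a secreted protein that binds bacterial siderophores. Its 7-day log2 levels ran from 4.66 through a median of 5.24 to 5.54, and its 14-day levels from 3.78 through 4.49 to 5.12. All 8 arrays of 14 days lay below the 7-day mean and 5 lay below the lowest array of 7 days, although the groups overlapped. Means were 5.20 ± 0.29 and 4.48 ± 0.41 (SD, n = 8 each), a log2 difference of -0.71 (SE 0.14, limma unadjusted p = 6.75e-06, adjusted p = 0.121). The difference was -0.83 among arrays numbered 1 to 4 and -0.60 among arrays numbered 5 to 8. The control mean was 4.08 and the 21-day mean 4.42.

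Saa2, a serum amyloid A apolipoprotein carried on high-density lipoprotein, had the widest difference of any gene. Its levels ran from 5.45 through 6.47 to 7.27 at 7 days and from 4.94 through 5.34 to 6.61 at 14 days. Of the 14-day arrays 7 lay below the 7-day mean and 1 lay above it. Means were 6.46 ± 0.52 and 5.50 ± 0.57 (SD, n = 8 each), a log2 difference of -0.96 (SE 0.22, 95% interval -1.41 to -0.51, limma adjusted p = 0.572). The control mean was 5.77, so that the 7-day mean stood above it and the 14-day mean below it. The neighbouring paralogue Saa1, named after its values were seen, had a 7-day mean of 4.35 ± 0.34 (SD, n = 8) and a difference of -0.36 (SE 0.25). Close paralogues such as these can share signal between their probe sets.

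Hemopexin (Hpx), the plasma haem scavenger, ran from 12.26 through 12.44 to 12.76 at 7 days and from 12.16 through 12.25 to 12.38 at 14 days. All 8 arrays of 14 days lay below the 7-day mean, with a difference of -0.20 (SE 0.072, limma unadjusted p = 0.00796). Of 25 acute phase genes measured, 20 had the lower mean at 14 days and 3 did so at an unadjusted p under 0.05, with a median of -0.08. Among genes above background 53.7% of means were lower, and 1.28% of all genes were lower at an unadjusted p under 0.05. The median of the brightest 25% of genes was -0.06, and after quantile normalization the acute phase median was -0.02 with 14 of 25 means lower. Among the exceptions was Hamp, encoding the iron-regulating hormone hepcidin, with means of 9.34 and 9.57.

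Lcn2 is also a neutrophil gene. Of 11 neutrophil markers measured 3 were above background, and their array means lay between 2.49 and 2.73 at 7 days and between 2.55 and 2.73 at 14 days. Of the 11, 9 had the higher mean at 14 days and 2 the lower, with a median of 0.06, beside 50.1% of all genes with the lower mean. Among the markers at or under background were S100a8 (2.43 and 2.40), Ly6g (2.34 and 2.48) and Retnlg (2.63 and 2.77). Markers of Kupffer cells, the resident liver macrophages, were lower in mean at 14 days in 11 of 15 genes, with a median of -0.15. At an unadjusted p under 0.05, 3 of them were lower. Beside these stand 53.7% of means lower among genes above background and 1.28% of all genes lower at an unadjusted p under 0.05. Array means of the Kupffer cell markers lay between 4.92 and 5.28 (median 5.08) at 7 days and between 4.83 and 5.21 (median 4.90) at 14 days.

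The 3 Kupffer cell genes were Cybb, Cd5l and Vsig4. Cybb, the catalytic subunit of the phagocyte NADPH oxidase, ran from 4.52 through 5.45 to 5.71 at 7 days and from 4.71 through 4.99 to 5.16 at 14 days, a difference of -0.34 (SE 0.13). Vsig4, a complement receptor, ran from 6.59 through 6.95 to 7.89 at 7 days and from 6.25 through 6.62 to 7.00 at 14 days, a difference of -0.42 (SE 0.19). Cd5l, a secreted macrophage protein, differed by -0.37 (SE 0.16). For these 3 genes the groups overlapped. Csf1r and Cd163, which mark the same cells, differed by 0.0036 and 0.0021. The part of macrophage content in the acute phase values was not tested.

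**Figure D1:**
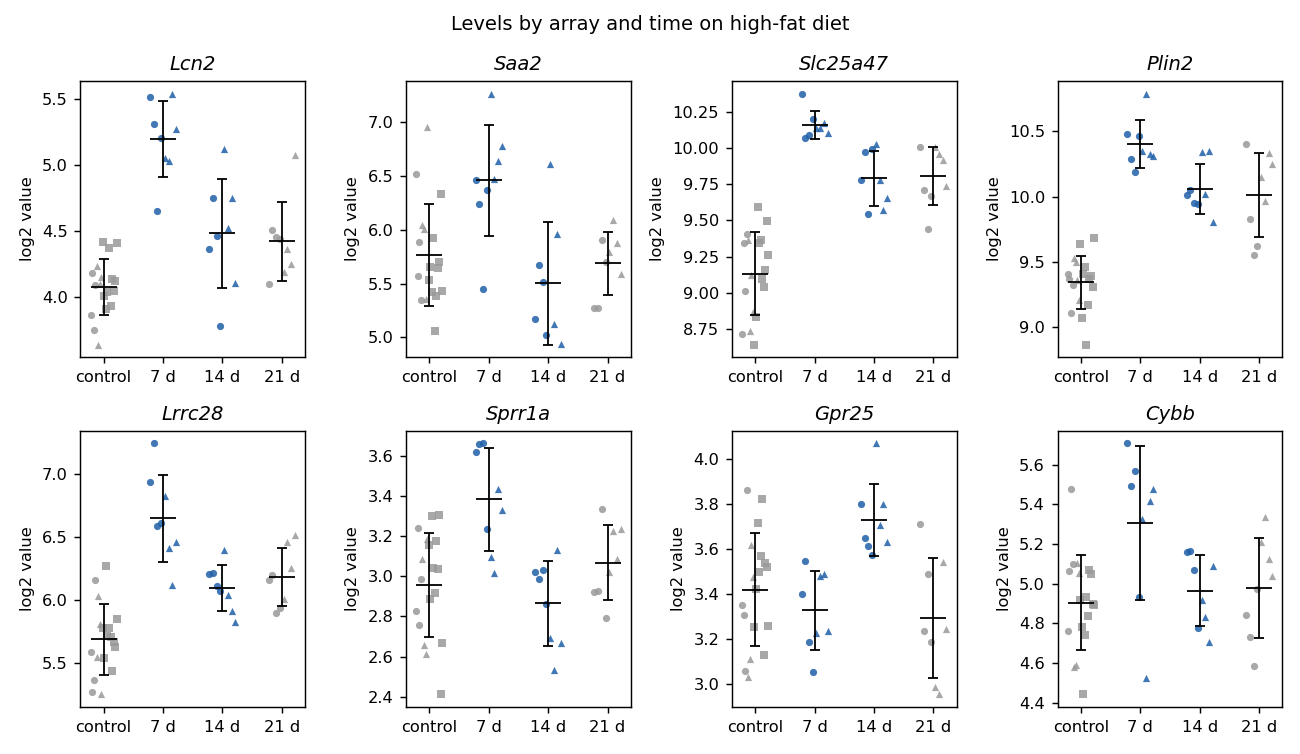
Log2 level of 8 genes in each array (points), by group on the horizontal axis, with mean and SD in black; blue marks the 7-day and 14-day arrays compared, grey the controls and the 21-day arrays, circles replicate numbers 1 to 4, triangles 5 to 8 and squares higher control numbers. The 8 arrays of 14 days lie below the 7-day mean of 5.20 for Lcn2, and for Slc25a47 and Gpr25 the groups do not overlap; vertical axes differ between panels and do not start at 0.

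Further genes with small p-values and a lower mean at 14 days encode proteins of varied kinds. Slc25a47, a liver mitochondrial carrier, ran from 10.07 through 10.14 to 10.37 at 7 days and from 9.54 through 9.78 to 10.02 at 14 days. Its groups did not overlap, and the difference was -0.37 (SE 0.11, limma unadjusted p = 0.00205). Both means stood above the control mean of 9.13, and the 21-day mean was 9.81. Lrrc28, a leucine-rich repeat protein, ran from 6.12 through 6.60 to 7.25 at 7 days and from 5.83 through 6.09 to 6.40 at 14 days, a difference of -0.55 (SE 0.13, limma unadjusted p = 0.000127). All 8 arrays of 14 days lay below its 7-day mean, and its 21-day mean was 6.18 against a control mean of 5.69.

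Sprr1a, a small proline-rich protein of the epithelial envelope, differed by -0.52 (SE 0.12), with means of 3.38 ± 0.26 and 2.87 ± 0.21 (SD, n = 8 each). Its control mean of 2.96 lay between both, close to the background level. The other 5 genes named in this direction were Abracl (-0.40), Wdyhv1, an amidase acting on N-terminal glutamine (-0.38), Fbxo33, a ubiquitin ligase subunit (-0.32), Stap2, a signalling adaptor (-0.30), and Mcm3, a subunit of the replicative helicase (-0.27). For each of these 5 the groups overlapped, and 4 to 7 arrays of 14 days lay below the lowest array of 7 days.

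The 10 genes named for a higher mean at 14 days all had low levels. Gpr25, a G protein-coupled receptor, ran from 3.05 through 3.32 to 3.55 at 7 days and from 3.57 through 3.68 to 4.07 at 14 days, and the groups did not overlap. Its difference was 0.40 (SE 0.11, limma unadjusted p = 0.000838), and the control mean of 3.42 lay between the 7-day and 14-day means. Gsto2, a glutathione transferase with dehydroascorbate reductase activity, ran from 2.64 through 2.85 to 2.94 at 7 days and from 2.96 through 3.09 to 3.24 at 14 days, again without overlap, a difference of 0.26 (SE 0.073). Apobec3, a cytidine deaminase that restricts retroviruses, had means of 3.27 ± 0.11 and 3.59 ± 0.15 (SD, n = 8 each), a difference of 0.33 (SE 0.094). The other 7 were Nphs1 (0.41), Clca3a2 (0.36), Fam117a (0.31), Maml3 (0.30), Kcna2 (0.29), Sparcl1 (0.26) and Crybg2 (0.24), and none of their 7-day means exceeded 4.43.

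The PPAR-alpha targets were described as a list of 32 genes, all above background. Of these, 28 had the lower mean at 14 days, 8 of them at an unadjusted p under 0.05, with a median of -0.18, and none passed the adjusted test. Over all genes above background 53.7% of means were lower at 14 days, 1.28% of all genes were lower at an unadjusted p under 0.05, and the brightest 25% of genes had a median of -0.06. No member had a higher mean at an unadjusted p under 0.05. The median was -0.21 among arrays numbered 1 to 4, -0.15 among arrays numbered 5 to 8 and -0.12 after quantile normalization.

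Plin2 encodes the coat protein perilipin 2 of lipid droplets. Its levels ran from 10.19 through 10.34 to 10.79 at 7 days and from 9.80 through 10.01 to 10.35 at 14 days. All 8 arrays of 14 days lay below the 7-day mean and 6 lay below the lowest array of 7 days. The difference was -0.34 (SE 0.11, limma unadjusted p = 0.0037), between means of 10.40 and 10.06 that both stood above the control mean of 9.34.

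The Cyp4a genes encode cytochrome P450 fatty acid omega-hydroxylases, and as close paralogues they can share probe signal. Cyp4a14 ran from 5.30 through 6.97 to 7.44 at 7 days and from 4.10 through 6.28 to 7.26 at 14 days, a difference of -0.63 (SE 0.31, 95% interval -1.25 to -0.02). Cyp4a31 ran from 6.37 through 6.94 to 7.48 at 7 days and from 5.28 through 6.25 to 7.60 at 14 days, a difference of -0.61 (SE 0.26). Cyp4a10 ran from 6.48 through 6.92 to 7.35 at 7 days and from 5.42 through 6.43 to 7.76 at 14 days, a difference of -0.41 (SE 0.20). For Cyp4a31 and Cyp4a10 one 14-day array (replicate 1) lay above every 7-day array while 6 and 5 lay below every one. The 14-day means, 6.03 for Cyp4a14, 6.33 for Cyp4a31 and 6.47 for Cyp4a10, stood far above the control means of 3.02, 4.09 and 4.32.

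The remaining members with an unadjusted p under 0.05 were the acyl-CoA thioesterases Acot3 (-0.45), Acot2 (-0.37) and Acot4 (-0.37) and Pex11a (-0.23), which promotes peroxisome division. Fgf21, a fasting-induced hormone, had means of 6.31 ± 0.36 and 6.01 ± 0.43 (SD, n = 8 each), a difference of -0.29 (SE 0.19). Fabp2, a fatty acid binding protein, differed by -0.37 (SE 0.19, limma unadjusted p = 0.0523). The mitochondrial fatty acid oxidation list had a median of -0.09, with 18 of 21 means lower at 14 days, 0 at an unadjusted p under 0.05 and a median of -0.03 after quantile normalization. The peroxisomal list had 11 of 13 means lower and a median of -0.08. After quantile normalization 15 of 21 and 8 of 13 means of these lists were lower. Among genes above background 53.7% of means were lower.

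Diet-response genes had also been set down as a panel of 32, chosen mostly for their differences from controls, which rest in part on the same 7-day and 14-day arrays, so that the counts are a description. The 14-day mean was lower for 26 and higher for 6, and 7 had an unadjusted p under 0.05, all with the lower mean at 14 days: Lcn2, Slc25a47, Plin2, Cyp4a31, Cyp4a10, Cyp4a14 and Obp2a. Obp2a, an odorant-binding lipocalin, ran from 3.73 through 4.45 to 5.66 at 7 days and from 3.77 through 4.04 to 4.55 at 14 days, a difference of -0.51 (SE 0.24). Unlike the other 6 its control mean, 5.52, stood above both. Over all genes, 50.1% had the lower mean at 14 days and 2.51% an unadjusted p under 0.05 in either direction. The 6 panel genes with the higher mean were Rgs16, Srebf1, Cyp7a1, Egfr, Serpina4-ps1 and Dbp.

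Cd36, a fatty acid receptor and transporter, ran from 5.75 through 7.41 to 8.44 at 7 days and from 5.30 through 6.49 to 7.88 at 14 days. Its difference of -0.64 (SE 0.35) had a 95% interval from -1.35 to 0.06. Mfsd2a, a lysophosphatidylcholine transporter, ran from 7.03 through 8.37 to 8.82 at 7 days and from 6.46 through 7.71 to 8.25 at 14 days, a difference of -0.60 (SE 0.42, 95% interval -1.45 to 0.24). Arrays of both groups overlapped over most of their range for these genes, and the intervals reach more than 2-fold lower at 14 days and include 0.

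Several genes that differ most from controls had nearly equal means at 7 and 14 days. Vnn1, the pantetheinase that makes cysteamine, ran from 5.80 through 6.26 to 6.83 at 7 days and from 5.44 through 6.34 to 6.79 at 14 days, a difference of -0.06 (95% interval -0.43 to 0.31) against a control mean of 3.26. Abcd2, a peroxisomal fatty acid transporter, differed by -0.05 (95% interval -0.54 to 0.43). Cyp7a1, which catalyses the first step of the classic bile acid pathway, had means of 7.73 and 7.73, and its interval ran from -0.70 to 0.72. Rgs16, a regulator of G protein signalling, differed by 0.03 with an interval from -0.87 to 0.94, so that a difference of more than 1.5-fold in either direction lies inside the intervals of Cyp7a1 and Rgs16. For both, the near-equal means rest on 1 low array. The difference was -0.28 for Cyp7a1 without the 7-day replicate 4 and 0.31 for Rgs16 without the 14-day replicate 3.

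**Figure D2:**
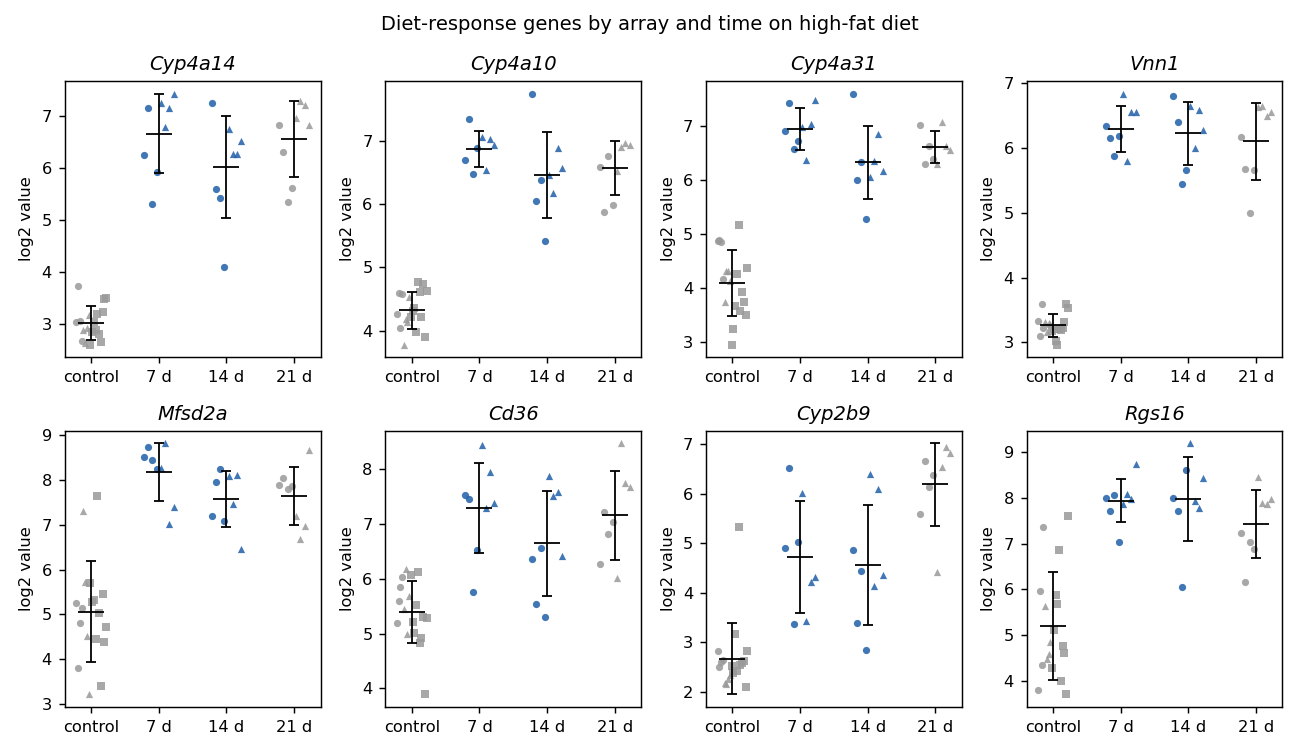
Log2 level of 8 diet-response genes in each array (points), by group, with mean and SD in black; colours and symbols separate the compared arrays (blue) from controls and 21 days (grey) and replicate numbers 1 to 4 (circles), 5 to 8 (triangles) and higher control numbers (squares). The 7-day and 14-day points overlap in all 8 panels; for Cyp4a14 the 14-day mean of 6.03 lies below the 7-day mean of 6.66, and both lie above the control mean of 3.02. Vertical axes differ between panels and do not start at 0.

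Cyp2b9, a cytochrome P450 with female-biased expression in mouse liver, differed in opposite directions between the number ranges. It ran from 3.38 through 4.62 to 6.52 at 7 days and from 2.86 through 4.40 to 6.40 at 14 days, a difference of -0.16 (SE 0.44). The difference was -1.07 among arrays numbered 1 to 4 and 0.75 among arrays numbered 5 to 8, and limma's test of that contrast gave an unadjusted p of 0.0595 and an adjusted p of 0.999.

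The de novo lipogenesis list holds enzymes that build fatty acids from acetyl-CoA, their regulators and other genes such as Khk and Pnpla3. Its median was -0.18 over 21 genes. The 14-day mean was lower for 17 of them, beside 53.7% of genes above background. Only Khk, fructokinase, reached an unadjusted p under 0.05 (-0.19, SE 0.094). The median was -0.29 among arrays numbered 1 to 4 and -0.03 among arrays numbered 5 to 8. Fasn, fatty acid synthase, had means of 9.52 ± 0.71 and 9.37 ± 0.50 (SD, n = 8 each), a difference of -0.15 (95% interval -0.89 to 0.58). Acaca, acetyl-CoA carboxylase, differed by -0.22 (95% interval -0.73 to 0.29). Srebf1, the lipogenic transcription factor, had the higher mean at 14 days, 7.85 against 7.66, a difference of 0.19 (95% interval -0.40 to 0.77). Pnpla3, a lipid droplet acylhydrolase, differed by -0.45 (SE 0.24), with 7-day levels from 4.04 to 6.44 and 14-day levels from 3.85 to 5.33.

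In bile acid and sterol metabolism, Cyp7b1, an oxysterol hydroxylase of the alternative bile acid pathway, ran from 9.02 through 9.74 to 10.51 at 7 days and from 9.08 through 10.16 to 10.82 at 14 days. The difference was 0.40 (SE 0.20, limma unadjusted p = 0.0451), the groups overlapped, and the control mean was 10.65. Over the 21 bile acid genes 13 means were higher at 14 days and the median was 0.03, or 0.08 with 2 means lower after quantile normalization. Cholesterol synthesis genes had a median of -0.07, with 14 of 19 means lower and 0 at an unadjusted p under 0.05, and after quantile normalization -0.0089 with 10 of 19 lower. Both lists' counts stand beside 53.7% of means lower among genes above background. Apoa4, an apolipoprotein of triglyceride-rich particles, ran from 11.51 through 11.80 to 12.18 at 7 days and from 11.03 through 11.52 to 11.92 at 14 days, a difference of -0.35 (SE 0.16) with a control mean of 9.99.

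Heat shock and chaperone genes had a median of -0.18 over 15 genes, with 13 means lower at 14 days, beside 53.7% among genes above background. Hsp90aa1, the inducible cytosolic HSP90, ran from 8.10 through 8.89 to 9.42 at 7 days and from 7.72 through 8.44 to 8.79 at 14 days, a difference of -0.49 (SE 0.23), and its control mean equalled the 14-day mean at 8.37. The list's median was -0.06 among arrays numbered 1 to 4 and -0.22 among arrays numbered 5 to 8. Among stress genes of the endoplasmic reticulum, Dnajb9, a co-chaperone, differed by -0.44 (SE 0.21), and Chac1, a glutathione-degrading enzyme, by 0.23 (SE 0.099). That list of 30 genes had a median of -0.04, which turned to 0.0063 after quantile normalization.

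Interferon response genes had 23 of 26 means lower at 14 days, 2 at an unadjusted p under 0.05, and a median of -0.12, beside 53.7% of means lower among genes above background and 1.28% of all genes lower at an unadjusted p under 0.05. Irgm1, an immunity-related GTPase, ran from 5.73 through 6.14 to 6.45 at 7 days and from 5.42 through 5.71 to 6.05 at 14 days, a difference of -0.38 (SE 0.19). Rsad2, the antiviral enzyme viperin, differed by -0.24 (SE 0.11). For both genes all 8 arrays of 14 days lay below the 7-day mean.

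Mitochondrial gene lists had smaller medians. Counts in this paragraph stand beside 53.7% of means lower among genes above background. The 67 genes of the respiratory chain and ATP synthase had a median of -0.04, with 47 means lower at 14 days and 0 genes at an unadjusted p under 0.05. After quantile normalization the median was 0.02, with 27 of 67 means lower. It was 0.02 and -0.13 in the lower and higher number ranges. For all 67 the 95% interval lay within 1.5-fold, as it did for 96.8% of all genes. Mitochondrial ribosomal proteins had a median of -0.07 over 46 genes, with 34 means lower, and mitochondrial carriers one of -0.07 over 42. After quantile normalization these medians were -0.04 and -0.02. Proteasome genes had 29 of 30 means lower at 14 days, 0 at an unadjusted p under 0.05, and a median of -0.10, or -0.05 after quantile normalization. For all 30 the interval lay within 1.5-fold, beside the same 96.8% of all genes.

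Clock and insulin signalling genes lay near the median of all genes. The circadian list had 10 of 19 means lower, beside 53.7% among genes above background, 0 at an unadjusted p under 0.05 and a median of -0.02. Dbp, a clock-driven transcription factor, ran from 6.25 through 7.31 to 8.60 at 7 days and from 6.49 through 7.81 to 8.33 at 14 days. The insulin and mTOR list had a median of 0.03 over 30 genes and 0 at an unadjusted p under 0.05. G6pc, the glucose-6-phosphatase of glucose release, had means of 9.72 ± 0.41 and 9.24 ± 0.61 (SD, n = 8 each), a difference of -0.48 with a 95% interval from -1.08 to 0.12. Pck1, of the same pathway, differed by -0.06 (95% interval -0.59 to 0.46).

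The other lists had medians on both sides of the overall one. Their counts stand beside 53.7% of means lower among genes above background. Gluconeogenesis, glycolysis and glycogen genes had 17 of 22 means lower at 14 days and a median of -0.11, and the tricarboxylic acid cycle had 20 of 23 lower and -0.09. Targets of NRF2, the oxidative stress factor, together with glutathione genes had 15 of 19 means lower and a median of -0.10, or -0.06 after quantile normalization. At an unadjusted p under 0.05 there were 0 genes. Thyroid and growth hormone response genes had 8 of 13 means higher and a median of 0.10, with 0 genes at an unadjusted p under 0.05. Socs2, a growth hormone feedback inhibitor, ran from 3.60 through 4.36 to 5.57 at 7 days and from 3.87 through 4.77 to 5.51 at 14 days. Male-biased liver genes had a median of 0.0062 over 27, which turned to -0.02 after median centring, and female-biased genes one of -0.10 over 16. At an unadjusted p under 0.05, 3 female-biased members were lower, beside 1.28% of all genes. They were Acot3, Cyp4a10 and Cyp4a14, which the PPAR-alpha list also holds.

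Amino acid and urea genes had a median of -0.04 over 37, which turned to 0.02 with 16 means lower after quantile normalization. Oat, ornithine aminotransferase, ran from 9.63 through 9.96 to 10.26 at 7 days and from 9.40 through 9.56 to 10.05 at 14 days, a difference of -0.32 (SE 0.13, limma unadjusted p = 0.0131). Crls1, the cardiolipin synthase of the inner mitochondrial membrane, ran from 5.70 through 6.05 to 6.38 at 7 days and from 5.64 through 5.83 to 5.92 at 14 days, a difference of -0.26 (SE 0.11), with all 8 arrays of 14 days below the 7-day mean. Glycerolipid and phospholipid genes as a list had 27 of 40 means lower and a median of -0.05, or 22 of 40 and -0.01 after quantile normalization. Hacd1, a dehydratase of fatty acid elongation, differed by -0.26 (SE 0.11). The desaturases and elongases had 14 of 16 means lower and a median of -0.07, or 13 of 16 and -0.02 after quantile normalization. Sphingolipid genes had 14 of 25 means lower and a median of -0.03. All counts of lower means in this paragraph stand beside 53.7% among genes above background.

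Markers of other cell types gave medians of 0.02 for lymphocytes (14 genes) and endothelial cells (12), which turned to -0.0056 and -0.0065 after median centring, 0.06 for stellate cells and fibroblasts (13) and 0.04 for cholangiocytes (7). Skeletal muscle markers had 8 of 10 means higher at 14 days and a median of 0.19, with array means between 3.27 and 4.13 at 7 days and between 3.31 and 4.28 at 14 days. Acinar markers had 17 of 21 means lower and a median of -0.13, which was -0.42 among arrays numbered 1 to 4 and 0.08 among arrays numbered 5 to 8. Among genes above background 53.7% of means were lower. Alas2, the erythroid enzyme of haem synthesis, ran from 8.66 through 8.90 to 9.17 at 7 days and from 8.37 through 8.65 to 8.98 at 14 days, a difference of -0.27 (SE 0.098, limma unadjusted p = 0.00806). The other measured erythroid genes, Slc4a1 and Epb42, differed by -0.04 and 0.12.

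**Figure D3:**
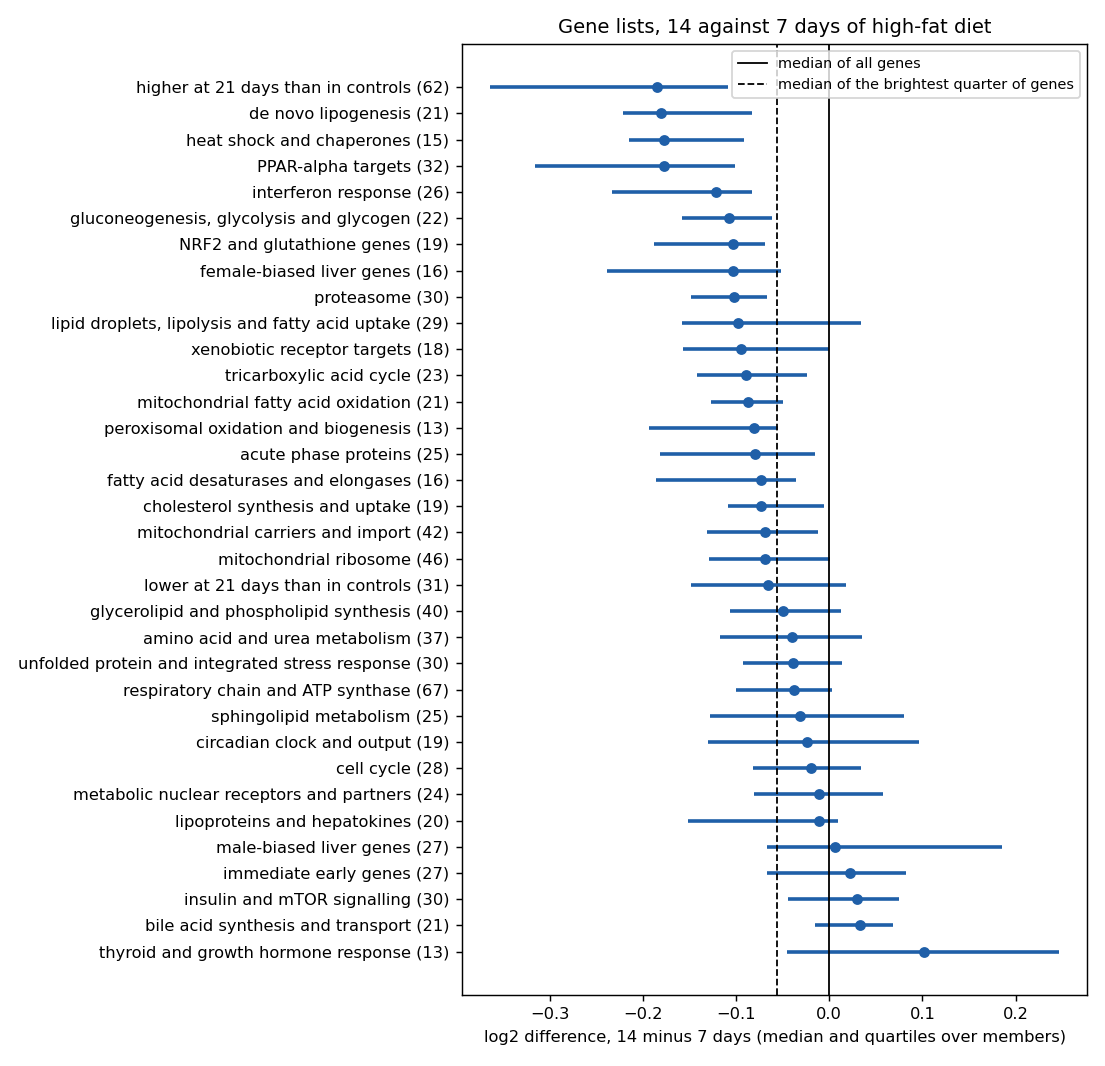
Median (point) and quartiles (bar) of the log2 difference, 14 minus 7 days, over the measured members of each gene list, with the number of members in parentheses. The lines mark the medians of all genes (-0.00031, solid) and of the brightest 25% of genes (-0.06, dashed); the lowest medians, near -0.18, belong to the genes higher at 21 days, de novo lipogenesis, heat shock genes and PPAR-alpha targets.

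A list drawn from other arrays was set against the same contrast. Between 21 days of high-fat diet and controls, fitted without the 7-day and 14-day arrays, limma called 62 genes higher (0.345%) and 31 lower (0.172%) at an adjusted p under 0.05. All 62 genes called higher also had a 14-day mean above the control mean, and 61 had a 7-day mean above it. Because the same controls served to choose the 62 genes, those counts are partly fixed by the choice and are a description only. The 7-day and 14-day arrays also differ from the controls in the word reanalysis. Of these 62, 57 had a lower mean at 14 than at 7 days, beside 53.7% of the 12031 genes above background. At an unadjusted p under 0.05, 17 of the 62 were lower, beside 1.28% of all genes. The median difference of the 62 was -0.19, against -0.01 for genes above background and -0.06 for the brightest 25% of genes. Plin2, Pex11a and the Cyp4a and Acot genes among these 17 were also among the PPAR-alpha targets described above. The 2 lists overlap and are therefore not separate results. The mean was lower in both number ranges for 50 of the 62, and 54 had the lower mean after quantile normalization. The 31 genes called lower at 21 days had a median of -0.07, with 20 means lower and 11 higher at 14 than at 7 days.

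Besides Plin2, Slc25a47, Lrrc28 and the Cyp4a and Acot genes, the 17 included Slc10a2, the apical sodium-dependent bile acid transporter (-0.58, SE 0.20), Serpina7, thyroxine-binding globulin (-0.51, SE 0.23), and Stap1, a signalling adaptor (-0.48, SE 0.16), which were named after their values were seen. The mean of Slc10a2 was 5.99 in controls, 7.22 at 7 days, 6.64 at 14 days and 6.76 at 21 days. That of Serpina7 was 5.55, 7.27, 6.76 and 6.78 in the same order. The 5 genes of the 62 with the higher mean at 14 days were Slc6a16, Slc19a1, Lmbr1l, Slc22a5 and Rgs16.

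**Figure D4:**
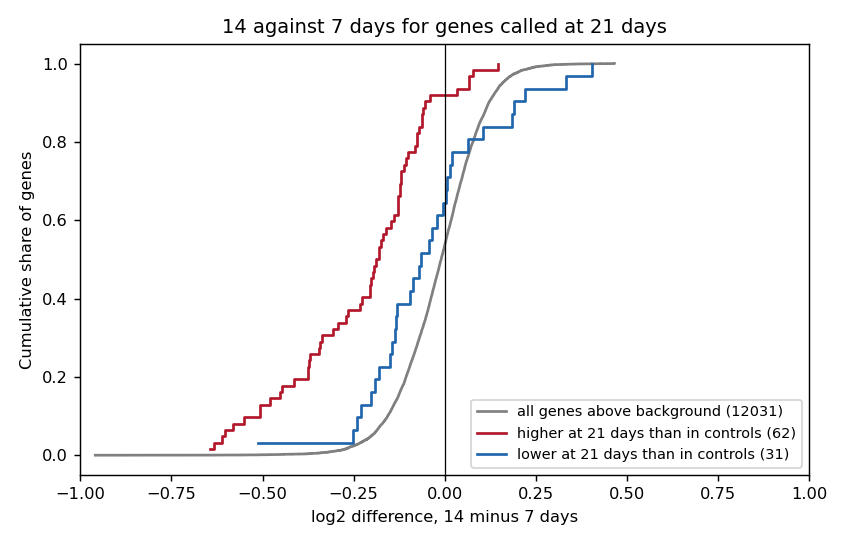
Cumulative share of genes (vertical axis) by log2 difference, 14 minus 7 days (horizontal axis), for the 62 genes called higher and the 31 called lower at 21 days than in controls, beside the 12031 genes above background. The red curve for genes higher at 21 days lies left of the grey one, with a median of -0.19 against -0.01.

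The replicate numbers separate the arrays within both groups. In the 16 arrays, limma called 1927 genes (10.7%) between numbers 5 to 8 and numbers 1 to 4. The difference between 14 and 7 days depended on the number range for 0 genes (0%) at an adjusted p under 0.05. At an unadjusted p under 0.05 it did so for 622, fewer than the 899 expected by chance. What the numbers stand for is not given in the labels. Pdgfra, a receptor of stellate cells and fibroblasts, differed by -0.01 in the lower range and by 0.72 in the higher.

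**Figure D5:**
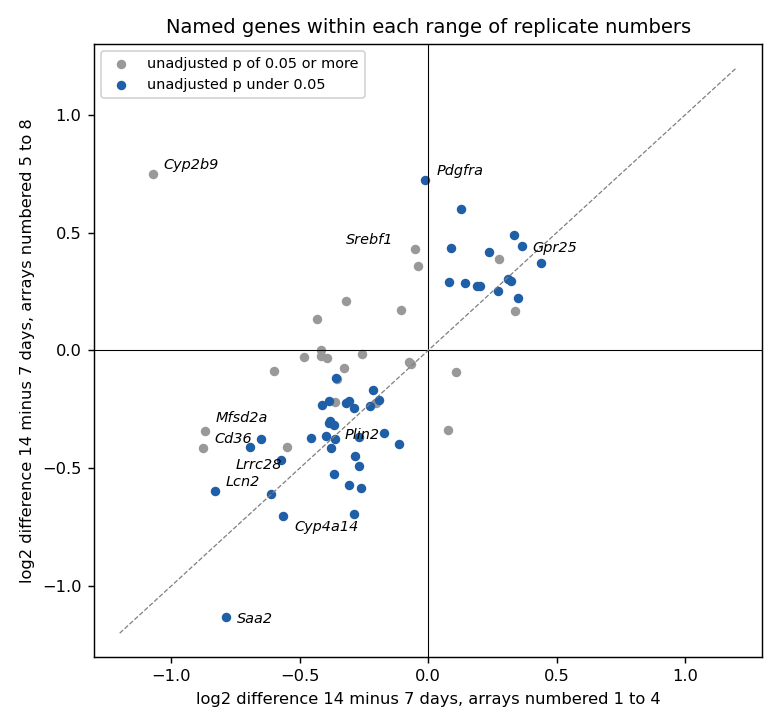
Log2 difference, 14 minus 7 days, among arrays numbered 1 to 4 (horizontal) and 5 to 8 (vertical) for the named genes that belong to the panel, head the p-values or have an unadjusted p under 0.05 (blue); grey points have a larger p and the dashed line marks equal values. Lcn2 lies at -0.83 and -0.60, and Cyp2b9 lies apart at -1.07 and 0.75.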

How the data were processed

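RNA was extracted with the miRNeasy Mini Kit including DNase treatment and labelled with the Whole Transcript Sense Target Labeling Assay, per the labels' protocols. The deposited values are log2 RMA intensities made in Affymetrix Expression Console 1.1, per the submitters' processing notes; no genome build for them is named in the sources used. They were used without further normalization. Of 32624 probe sets, 1 lacked a value; 19559 have 1 gene symbol in the platform annotation, which can be old, 1469 several and 11596 none. Of these 19559, 19475 matched a RefSeq entry and 0 symbols were updated. A gene is its brightest probe set, which gave 17989 genes.

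All 42 arrays were fitted in 1 model with 4 groups in limma 3.58.1 (R 4.3.3), two-sided, with Benjamini-Hochberg adjustment over all genes; errors of a difference are limma's SE. Over all 32623 probe sets, named or not, 0 passed and 763 had an unadjusted p under 0.05. No depth exists for arrays, so their number limits the precision. Scripts were tested on simulated data. Alternatives covered the arrays fitted, scaling, dim genes, probe sets, array weights, the spread model, covariates and each array left out.

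Genes named are the 10 with the smallest p in each direction among genes above background, the panel of 32, and up to 3 with the smallest p in each of 32 gene lists and 13 marker lists, predicted genes passed over; exceptions are marked. The comparison, panel and lists were chosen with earlier results of these data known. Promoter sequences are RefSeq's (GRCm38.p6); the motif was picked after values were seen, from several spellings for several factors searched in these and other genes' promoters. No 2 arrays held identical values.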

Additional observations from a re-analysis of the deposited data

Results flagged for a closer look

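In 8 of 144 sets of 8 arrays (72 genes followed, 7 and 14 days), 1 array stood apart from the others by Dixon's criterion, a share that chance alone gives at about 1 in 20. For Slc25a47 the 7-day replicate 1 was high, at 10.37 against 10.07 to 10.20 in the others, and the difference without it was -0.34. For Gpr25 the 14-day replicate 5 was high, at 4.07 against 3.57 to 3.80, and the difference without it was 0.35. For Rgs16 the 14-day replicate 3 was low, at 6.05 against 7.72 to 9.19, and the difference was 0.31 without it and 0.03 with it. For Cyp7a1 the 7-day replicate 4 was low, at 5.69 against 7.71 to 8.59, and the difference was -0.28 without it and 0.01 with it. The same array was low for Etnppl, at 7.15 against 7.84 to 8.24, and the difference without it was -0.25. For Per1 the 7-day replicate 3 was high, at 4.04 against 3.20 to 3.52. For Arntl the 14-day replicate 7 was high, at 5.21 against 3.80 to 4.28. For Khk the 14-day replicate 6 was high, at 10.85 against 10.56 to 10.70.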

How the results depend on the processing

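The count of genes called between 14 and 7 days was 0 in all alternatives tried except 3. With limma's array weights it was 3: Lcn2 (-0.66, adjusted p = 0.0256), Lrrc28 (-0.64, adjusted p = 0.0159) and Sprr1a (-0.55, adjusted p = 0.0159). Leaving out each array in turn gave 0 to 1 genes, the 1 being Lcn2 without the 7-day replicate 3 (limma adjusted p = 0.0185) or without the 14-day replicate 5 (limma adjusted p = 0.00862). Over all alternatives Lcn2 ran from -0.83 to -0.60 and its limma adjusted p from 0.00862 to 0.999. With the replicate numbers as a replicate block in the 16 arrays 0 genes were called (406 higher and 557 lower at an unadjusted p under 0.05, smallest limma adjusted p = 0.0810); correlations of same-numbered arrays ran from -0.17 to 0.49, 5 of 8 above 0.1, so the numbers were not taken to pair the samples, and 2 of 8 arrays of 7 days correlated best with their own number. The split at an unadjusted p under 0.05, 221 higher and 230 lower, became 125 and 327 after centring arrays on their medians and 161 and 220 after quantile normalization. Of 72 genes followed, the 20 named for the smallest p-values in either direction (10 in each), a choice made on these same arrays, kept their direction in all 29 alternatives, whereas 12 others turned in at least 1: Vnn1, Abcd2, Rgs16, Cyp2b9, Fasn, Srebf1, Cyp7a1, Acmsd, Pck1, Dbp, Arntl and Pdgfra. The acinar list's median ran from -0.68 to 0.32 as arrays were left out. The number of genes changed at 21 days against controls was 93, and 97 to 126 in its alternatives. That of genes whose change differs between replicate numbers 1-4 and 5-8 was 0 in each alternative.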
